A study of Mus musculus with 18 samples.

Results

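Interferon regulatory factors (IRFs) and interferon beta were followed through RNA-Seq libraries of mouse bone marrow-derived macrophages (BMDMs) that had met LPS or not, with or without carboplatin. The 9 genes, Irf1, Irf2, Irf3, Irf4, Irf5, Irf7, Irf8, Irf9 and Ifnb1, were chosen by name from the 22852 gene symbols in the count tables. Of these, 8 passed the filter on low counts and were tested. Ifnb1 did not pass, and its counts are given library by library. The cells came from female C57BL/6 mice and were grown for 7 days in medium conditioned by L929 cells.

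The 18 samples formed 6 groups of 3 biological replicates. Unstimulated BMDMs received neither agent. LPS-stimulated BMDMs received one dose of Salmonella LPS at 10 ng/ml, taken here as 3 h, since their label gives the dose and no time. LPS-primed BMDMs were kept with LPS at 100 ng/ml over 24 h. LPS-tolerant BMDMs were primed in this way and then given 10 ng/ml during a further 3 h. In the remaining groups, primed or tolerant cells received 25 µM carboplatin, a platinum compound that crosslinks DNA, from 1 h ahead of the priming dose. The labels give it together with the priming LPS, and the medium was replaced after the 24 h of priming. All 6 groups shared one strain and one way of culture.

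When LPS reaches Toll-like receptor 4, the adaptor TRIF activates the kinases TBK1 and IKKε, which phosphorylate IRF3 and thereby switch on Ifnb1. Secreted interferon beta acts on the receptor made of IFNAR1 and IFNAR2, and a complex that holds STAT2 and IRF9 then turns on interferon-stimulated genes, Irf7 among them. LPS tolerance is the state in which macrophages that have met LPS respond less to a further dose. Many IRFs are also regulated as proteins, by phosphorylation and movement into the nucleus, which transcript levels do not measure.

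The depth of the libraries was 6869667 to 14708099 read pairs on genes. Levels below are counts scaled to a common library size by the TMM method (normalised counts), with mean ± SD over n = 3. A change was called at an adjusted p under 0.05 by the quasi-likelihood test of edgeR over all 11305 genes tested, with no limit on its size. Fold changes are log2 values from edgeR with their SE. All 8 macrophage markers examined, among them Csf1r, Adgre1 and Lyz2, were detected in every group. Unstimulated replicate 1 stood apart, since 27 of 28 interferon-stimulated target genes were above both other unstimulated replicates, by a median log2 difference of 1.23. Unstimulated replicate 2 stood apart on the low side, with 28 of 28 below both others and a median log2 difference of -1.15. Replicate 2 was the high one among LPS-primed libraries and among LPS-primed libraries with carboplatin, again in 27 of 28 target genes. Results on Irf7 are also given without single libraries. Results on the target genes are also given without unstimulated replicate 1 or LPS-primed replicate 2. Those libraries were chosen by the same target genes, and no such result is given without unstimulated replicate 2. In bulk RNA, fewer cells of a type and less RNA per cell cannot be told apart.

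One dose of LPS changed 4 of the 8 tested IRF genes. Compared with unstimulated BMDMs, Irf1 and Irf4 rose and Irf2 and Irf8 fell, against a background of 24.3% of all tested genes called higher and 26.9% called lower. After 24 h of priming, Irf7 was higher and Irf4 and Irf5 were lower than in unstimulated cells, against 12.1% and 13.1% of all genes. LPS-tolerant cells differed from LPS-stimulated cells in 6 of the 8. Irf2, Irf7 and Irf8 were higher there and Irf1, Irf4 and Irf9 were lower, against 16.2% and 18.3%. In LPS-tolerant against LPS-primed cells, Irf5 was higher and Irf1 lower, against 3.6% and 2.71% of all genes. These groups differ by the second dose and also by the removal of the priming medium and 3 h more in fresh medium, which cannot be told apart from the dose. Irf3 passed the test in none of these comparisons. The comparisons share groups with each other, so their values are not independent.

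**Figure D1:**
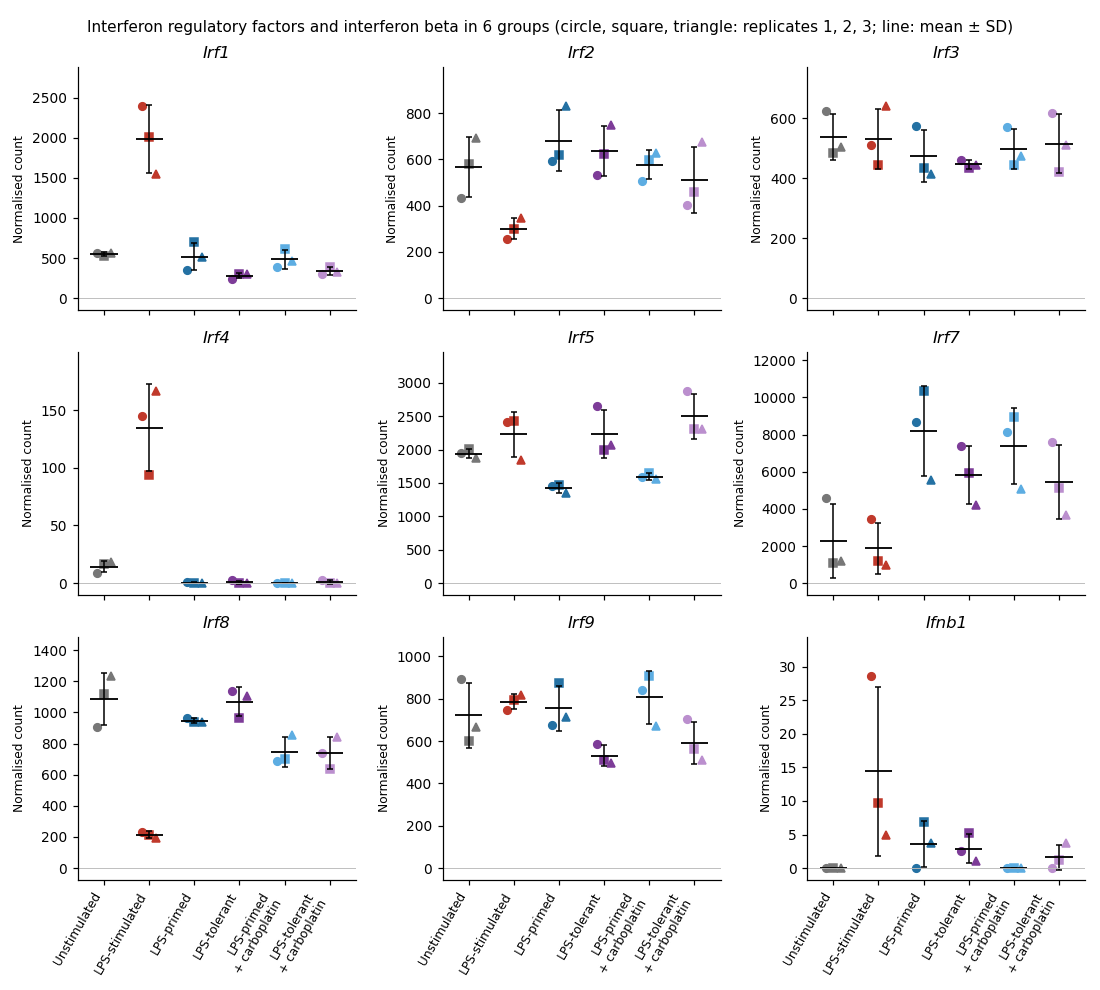
Normalised counts (vertical axes) of the 9 genes in 6 groups (horizontal axes), with 1 point per library, replicates 1 to 3 as circle, square and triangle, and bars for mean ± SD with n = 3. Irf1 and Irf4 have their highest means, 1981 and 135, in LPS-stimulated BMDMs, where Irf8 has its lowest mean of 213.

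With the limits of the study, a log2 fold change beyond 2 in either direction besides the adjusted p, fewer IRF genes were called. Irf4 was the one gene called lower in LPS-primed than in unstimulated cells, against 4.07% of all genes. In LPS-stimulated against unstimulated cells, Irf4 was called higher and Irf8 lower, against 6.42% and 5.54%. In LPS-tolerant against LPS-stimulated cells, Irf8 was called higher and Irf1 and Irf4 lower, against 2.97% and 5.07%.

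**Figure D2:**
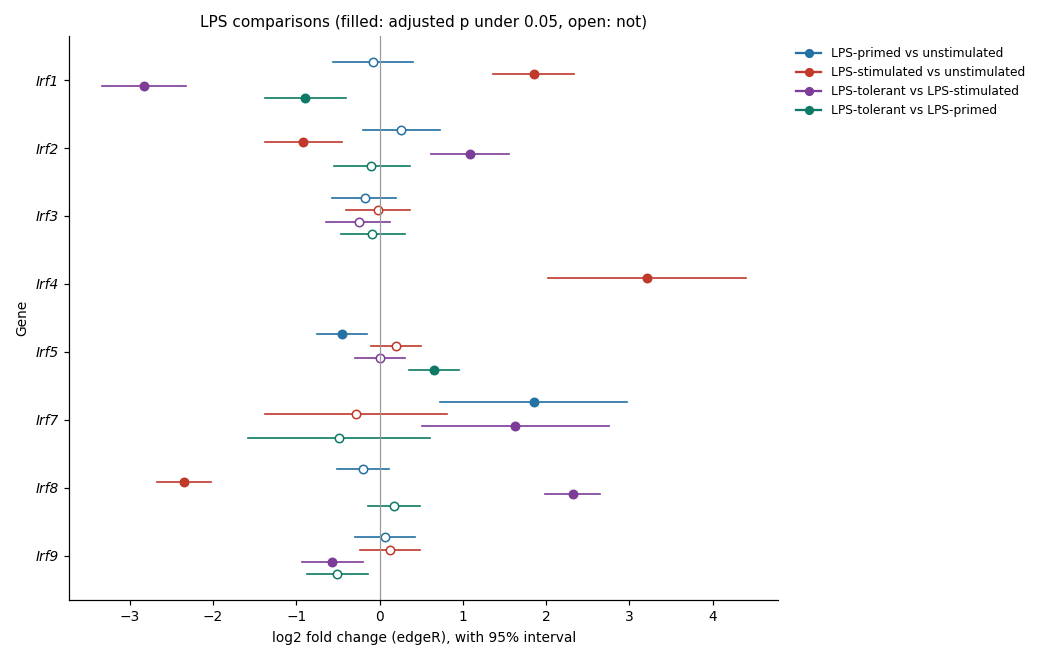
Log2 fold changes from edgeR with 95% intervals (horizontal axis) of the 8 tested genes (vertical axis) in 4 LPS comparisons, with filled points for an adjusted p under 0.05 and open points for the others. For Irf4, the comparison of LPS-stimulated with unstimulated cells alone is drawn, at 3.21, since LPS-primed and LPS-tolerant libraries hold 0 to 2 reads. Irf1 and Irf8 lie on opposite sides of 0 in stimulated against unstimulated cells, at 1.85 and -2.35, and on the reverse sides in tolerant against stimulated cells, at -2.83 and 2.32.

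Interferon beta was close to the limit of detection. Ifnb1, a cytokine gene without introns on the minus strand of chromosome 4 (GRCm39, 88440262 to 88441011), had 0 reads in all 3 unstimulated libraries. The LPS-stimulated libraries held 24, 14 and 5 reads, the LPS-primed libraries 0, 6 and 4, and the LPS-tolerant libraries 2, 6 and 1. With carboplatin, the primed libraries held 0 reads throughout and the tolerant libraries 0, 1 and 4. Stimulated libraries were all above the unstimulated ones and overlapped with primed and tolerant ones. The promoter is shown because IRFs and NF-κB are known to act together on it. It is the RefSeq sequence of chr4:88522745-88523044 (GRCm38.p6, minus strand), from 250 bases before to 50 bases after the start site, with matches to the motifs searched in capitals.
Ifnb1: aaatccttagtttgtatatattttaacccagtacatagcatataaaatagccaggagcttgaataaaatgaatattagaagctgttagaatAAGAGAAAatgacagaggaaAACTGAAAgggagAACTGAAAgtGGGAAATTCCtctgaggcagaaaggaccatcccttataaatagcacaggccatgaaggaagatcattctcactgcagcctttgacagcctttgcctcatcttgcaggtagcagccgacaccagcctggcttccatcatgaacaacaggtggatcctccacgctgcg
The capitals mark, in order, 3 matches to the IRF core AANNGAAA, which start 159, 139 and 126 bases before the start site, and 1 match to the NF-κB consensus, which starts 116 bases before it. Both strands were searched, also for the tandem IRF motif GAAANNGAAA, which contains the core, and for the STAT motif TTCNNNGAA. The IRF core is found in 23.9%, the tandem IRF motif in 3.44%, the STAT motif in 8.3% and the NF-κB consensus in 4.51% of 32851 RefSeq mouse promoters of the same length. A match describes the letters only.

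Since the unstimulated group was at 0, the rise of Ifnb1 is given as a bound. Against a floor of 3 reads per library, the mean of LPS-stimulated cells (14.4 ± 12.5 normalised counts) was at least 5.37-fold higher than that of unstimulated cells. Without stimulated replicate 1 the mean was 7.31 and the bound 2.72-fold. In an edgeR fit with no filter on low counts, the difference passed with an adjusted p of 0.00212 over 15486 genes, of which 17.8% were called higher. It also passed in each of the 6 fits that left out one library. An exact two-sided permutation test of the normalised counts gave p = 0.1, the smallest value that 3 against 3 samples allow. After scaling, the summed reads of stimulated cells were 4.23 times those of tolerant cells (95% interval 2.03 to 9.87, counting error only), and without the filter the adjusted p of edgeR was 0.146. Without the filter, the edgeR test of the second response against the first gave Ifnb1 an adjusted p of 0.0221, where 9.09% of genes were called lower. That call was lost without unstimulated replicate 2, LPS-primed replicate 2 or LPS-stimulated replicate 1, with an adjusted p of up to 0.0756. Unstimulated cells were at 0, and primed and tolerant means, 3.53 and 2.91 normalised counts, lay near the floor of 3 reads. The difference between the responses is therefore not read for Ifnb1. Of 19 other interferon genes of types I and III, 3 had any read and none more than 2 in a library.

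Irf3, which carries the signal of TRIF to the Ifnb1 promoter, passed the test in no comparison. The gene is on the plus strand of chromosome 7 (GRCm39, 44647033 to 44652272). Normalised counts were 624, 485 and 504 in unstimulated replicates 1, 2 and 3 and 510, 443 and 641 in LPS-stimulated replicates. They were 573, 433 and 415 in LPS-primed and 461, 433 and 445 in LPS-tolerant replicates. Group means ran from 446 in LPS-tolerant to 538 in unstimulated cells, and every group overlapped with the next one in that order. In LPS-stimulated against unstimulated cells the log2 fold change was -0.02 (SE 0.18, 95% interval -0.40 to 0.37).

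Irf7, an interferon-stimulated gene whose protein amplifies the type I interferon response, had the highest mean level of the 9 genes per kilobase of exon in all 6 groups, although not in LPS-stimulated cells once replicate 1 was left out. The gene is on the minus strand of chromosome 7 (GRCm39, 140842619 to 140846398). Unstimulated replicates 1, 2 and 3 held 4560, 1098 and 1180 normalised counts, and LPS-stimulated replicates held 3461, 1178 and 995. LPS-primed replicates held 8692, 10350 and 5541 and LPS-tolerant replicates 7367, 5904 and 4198. Replicate 1 was far above the other replicates in both the unstimulated and the stimulated group, and all primed libraries were above all unstimulated and stimulated ones.

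Priming raised Irf7 by a log2 fold change of 1.85 (SE 0.53, adjusted p = 0.0163), from 2279 ± 1975 to 8194 ± 2442 normalised counts. The ratio of primed to unstimulated cells was 1.91, 9.43 and 4.70 in same-numbered samples. Without unstimulated replicate 1 the log2 fold change was 2.86, with an adjusted p of 6.4e-04. The call was lost without unstimulated replicate 2, unstimulated replicate 3 or LPS-primed replicate 2, with adjusted p values of 0.0747, 0.0699 and 0.0535. An edgeR fit of all libraries with the replicate number as a block gave 4.6e-05, and called 18.9% of all genes higher. LPS-stimulated cells did not pass against unstimulated cells (log2 fold change -0.28, SE 0.52, 95% interval -1.38 to 0.81). That value was 0.74 without unstimulated replicate 1 and -1.07 without stimulated replicate 1, and -0.05 without both. LPS-tolerant cells had more Irf7 than stimulated cells, by 1.63 (SE 0.53, adjusted p = 0.0239), and same-numbered samples differed 2.13-fold, 5.01-fold and 4.22-fold. That value was 2.42 without stimulated replicate 1 and 2.43 without replicate 1 of both low groups. It missed the threshold without LPS-tolerant replicate 1, stimulated replicate 2 or stimulated replicate 3, with adjusted p values of 0.0746, 0.101 and 0.102. The block fit of all libraries gave 1.3e-04 for tolerant against stimulated cells, and called 5380 of 11305 genes there. The part that the interferon-target level of a library has in its Irf7 level was not tested.

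**Figure D3:**
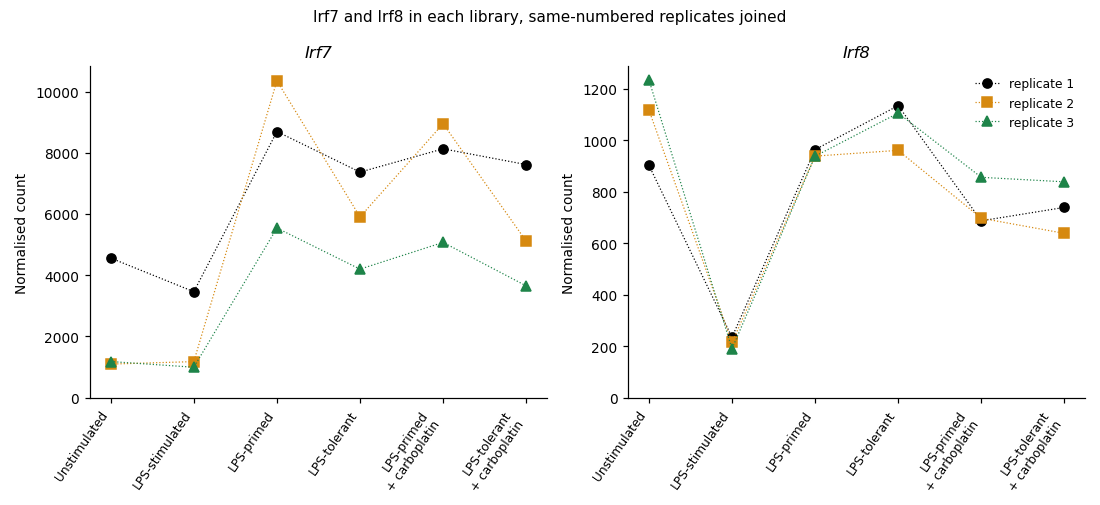
Normalised counts (vertical axes) of Irf7 and Irf8 in each library of the 6 groups (horizontal axes), with same-numbered replicates joined by dotted lines. For Irf7, replicate 1 is the highest of the unstimulated and LPS-stimulated libraries, at 4560 and 3461. For Irf8, each carboplatin library lies below its same-numbered library without carboplatin.

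Irf5, whose protein works downstream of MyD88 in the induction of inflammatory cytokines, moved within a narrow range. Its position is the plus strand of chromosome 6 (GRCm39, 29526276 to 29541870). Normalised counts were 1945, 2002 and 1869 in unstimulated and 1449, 1477 and 1345 in LPS-primed replicates, with no overlap. They were 2649, 1995 and 2064 in LPS-tolerant replicates, all above the primed ones, and 2414, 2433 and 1838 in LPS-stimulated replicates. Priming lowered Irf5 by a log2 fold change of -0.45 (SE 0.14, adjusted p = 0.0278). This call was lost in all 6 fits that left out one library, with adjusted p values from 0.0526 to 0.0993, and at 0.0553 without the filter on low counts. The edgeR fit with the replicate block gave 0.00398, and called 19.8% of all genes lower. Tolerant cells were above primed cells by 0.65 (SE 0.14, adjusted p = 0.0108). That call missed the threshold without LPS-primed replicate 3 or LPS-tolerant replicate 1 (0.0591 and 0.0624) and in a fit of those groups alone (0.0533). The block fit gave an adjusted p of 0.00071 here, and called 9.67% of all genes higher.

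Irf1, an activator of interferon-stimulated and interferon-gamma target genes, rose most clearly after one dose of LPS. It lies on the plus strand of chromosome 11 (GRCm39, 53660812 to 53669200). Its promoter is shown because the level of Irf1 differed in most LPS comparisons. The sequence is that of RefSeq for chr11:53769764-53770063 (GRCm38.p6, plus strand) over the same window.
Irf1: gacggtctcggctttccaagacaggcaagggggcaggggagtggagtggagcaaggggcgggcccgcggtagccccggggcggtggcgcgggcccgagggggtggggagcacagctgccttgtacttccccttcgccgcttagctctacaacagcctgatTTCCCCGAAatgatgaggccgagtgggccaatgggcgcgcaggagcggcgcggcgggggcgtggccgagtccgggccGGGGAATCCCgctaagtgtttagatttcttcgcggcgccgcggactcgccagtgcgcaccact
The capitals mark 1 STAT motif, 90 bases before the start site, and 1 match to the NF-κB consensus, 13 bases before it. The window of a second RefSeq entry of Irf1 holds no match. Normalised counts were 558, 524 and 564 in unstimulated and 2395, 2004 and 1544 in LPS-stimulated replicates. They were 351, 695 and 512 in LPS-primed and 242, 296 and 298 in LPS-tolerant replicates. Stimulated libraries were far above all others, and tolerant libraries were below all unstimulated and primed ones. Irf1 rose from 549 ± 21.9 to 1981 ± 426 in stimulated cells, a log2 fold change of 1.85 (SE 0.23, adjusted p = 4.84e-06). Tolerant cells, at 279 ± 31.8, were lower than stimulated cells by a log2 fold change of -2.83 (SE 0.24, adjusted p = 1.64e-07). They were also below primed cells, by -0.90 (SE 0.23, adjusted p = 0.0275). The last call held without LPS-primed replicate 1 but was lost in the other 5 fits that left out one library. The adjusted p was 0.145 without LPS-primed replicate 2, 0.0777 without LPS-primed replicate 3, and 0.0959, 0.0635 and 0.0726 without LPS-tolerant replicates 1, 2 and 3. It was 0.0771 in a fit of those groups alone. The edgeR fit of all libraries with the replicate block gave 0.00499, and called 8.32% of all genes lower. Genes annotated on the opposite strand cover up to 31.4% of the exon bases of Irf1, and since the strand setting of the counting is not stated, reads from them cannot be told apart here.

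Irf2, which binds the same sites as Irf1 and is known mainly as a repressor, moved the other way. Its position is the plus strand of chromosome 8 (GRCm39, 47192222 to 47300501). Unstimulated replicates 1, 2 and 3 held 432, 579.5 and 692 normalised counts and LPS-stimulated replicates 255, 299 and 347. LPS-primed replicates held 592, 619 and 831 and LPS-tolerant replicates 534, 625 and 748. Stimulated libraries were below all others, while neighbours in the order of the other groups overlapped. Irf2 fell by 0.92 on the log2 scale in stimulated against unstimulated cells (SE 0.22, adjusted p = 0.0023) and was higher in tolerant than in stimulated cells by 1.08 (SE 0.22, adjusted p = 0.00105).

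Irf4, best known in lymphocytes and in alternatively activated macrophages, was present at low counts that differed widely between groups. Its position is the plus strand of chromosome 13 (GRCm39, 30933209 to 30950959). Unstimulated libraries held 9, 20 and 20 reads and LPS-stimulated libraries 121, 135 and 169. LPS-primed libraries held 1, 0 and 0 reads, LPS-tolerant libraries 2, 0 and 0, primed libraries with carboplatin 0 throughout, and tolerant libraries with carboplatin 2, 0 and 0. Stimulated libraries were above all others, and unstimulated libraries were above all libraries that had been primed. Irf4 was higher in stimulated than in unstimulated cells by a log2 fold change of 3.21 (SE 0.56, adjusted p = 2.15e-04), with 135 ± 37.5 against 14.4 ± 5.09 normalised counts. The scaled reads of unstimulated cells were 42.1 times those of primed cells (95% interval 7.20 to 1694, counting error only, edgeR adjusted p = 0.00179). Those of stimulated cells were 188 times those of tolerant cells (interval 51.8 to 1558, adjusted p = 6.87e-06). No fold is given between primed and tolerant cells, which both lie at the floor of 3 reads. Ighm, an immunoglobulin gene, averaged 913 normalised counts in unstimulated and 184 in stimulated cells and at most 5.46 elsewhere. Cd79b averaged 10.8 normalised counts in unstimulated and 2.18 in stimulated cells and 1.35 to 6.23 elsewhere, while Ms4a1 and Pax5 stayed below 1 in every group mean. The summed level of all 7 B and plasma cell markers was 269 to 1560 in unstimulated, 71.6 to 271 in stimulated and 0.94 to 12.7 in the other libraries. Their part in the Irf4 level was not tested.

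Irf8, a factor of myeloid development that works with PU.1, showed the largest fall with one dose of LPS among the 8 tested genes. It lies on the plus strand of chromosome 8 (GRCm39, 121463096 to 121485659). The promoter of its first RefSeq entry is shown because Irf8 had the largest decrease of the 8 tested factors with one dose. It spans chr8:120736108-120736407 (GRCm38.p6, plus strand).
Irf8: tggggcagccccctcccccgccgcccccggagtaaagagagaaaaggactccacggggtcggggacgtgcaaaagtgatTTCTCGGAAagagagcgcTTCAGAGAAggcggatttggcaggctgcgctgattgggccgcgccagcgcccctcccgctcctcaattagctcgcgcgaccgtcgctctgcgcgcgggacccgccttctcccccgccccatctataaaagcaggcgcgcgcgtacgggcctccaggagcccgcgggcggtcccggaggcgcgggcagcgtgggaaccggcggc
The capitals mark 2 STAT motifs, 171 and 153 bases before the start site, and none of the other motifs searched was found in this window, nor any of them in the window of the second RefSeq entry. The window of Irf2, which fell with one dose, holds IRF core matches 245 and 239 bases before its start site and a tandem IRF match 241 bases before it. It also holds a STAT motif 224 and an NF-κB match 17 bases before that site. The window of Irf4, which rose, holds no match. The part of these matches in the changes was not tested. Normalised counts were 903, 1118 and 1235 in unstimulated and 235, 214.5 and 190.3 in LPS-stimulated replicates. They were 964, 939 and 939 in LPS-primed and 1135, 961 and 1106 in LPS-tolerant replicates. Stimulated libraries were far below every other library. Irf8 fell by 2.35 on the log2 scale in stimulated cells (SE 0.16, adjusted p = 3.88e-09), from 1085 ± 168 to 213 ± 22.4. Tolerant cells were above stimulated cells by 2.32 (SE 0.16, adjusted p = 1.02e-08). Tolerant against primed cells gave 0.17 (SE 0.15, adjusted p = 0.563).

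Irf9, the DNA-binding subunit of a complex with STAT2, had its lowest mean in LPS-tolerant cells. It lies on the plus strand of chromosome 14 (GRCm39, 55841028 to 55847812) and shares 282 exon bases, 4.86% of its own, with Rnf31 on the same strand. Normalised counts were 894, 602 and 668 in unstimulated, 747, 792 and 819 in LPS-stimulated, and 677, 876 and 713 in LPS-primed replicates. LPS-tolerant replicates held 587.5, 511 and 495, below all libraries of those groups. They overlapped with tolerant replicates with carboplatin, which held 704, 561 and 513. Tolerant cells were lower than stimulated cells by a log2 fold change of -0.57 (SE 0.17, adjusted p = 0.0173). This call was lost without LPS-tolerant replicate 2, LPS-tolerant replicate 3 or LPS-stimulated replicate 3, at 0.0545, 0.0664 and 0.0526. The edgeR fit of all libraries with the replicate block gave 0.00398, and called 5380 of 11305 genes. Against primed cells the log2 fold change was -0.51 (SE 0.17, adjusted p = 0.0933). It passed with the replicate number as a block (adjusted p = 0.0237), a fit in which 8.32% of all genes were called lower.

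Whether a second dose of LPS acted as the first one did was tested directly, as the change from primed to tolerant cells minus the change from unstimulated to stimulated cells. Irf1 differed by -2.75 (log2 scale, SE 0.33, adjusted p = 9.66e-06), having risen with the first dose and being lower after the second. Irf8 differed by 2.52 (SE 0.21, adjusted p = 1.85e-07), having fallen with the first dose, while the second gave the 0.17 that did not pass. Of all genes, 10.5% were called higher and 13.3% lower in this test. With the replicate number as a block, Irf2 (0.81, adjusted p = 0.00056), Irf5 (0.45, adjusted p = 0.0323) and Irf9 (-0.65, adjusted p = 0.0210) passed as well, besides Irf1 and Irf8. In that fit 17.2% of all genes were called higher and 19% lower. Without the block these genes had adjusted p values of 0.0641, 0.121 and 0.0719. For Irf4 no such difference is read, because primed and tolerant cells were both at the floor.

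Carboplatin passed the edgeR test without a replicate block for none of the 8 genes in primed or tolerant cells. Of all genes, 0% were called higher and 0.372% lower in primed cells with carboplatin, and 0.0177% and 0.407% in tolerant cells with carboplatin. At an unadjusted p under 0.05 there was 1 of the 8 in each comparison, Irf8 both times, against 6.86% and 6.73% of all genes at that cut. DESeq2 called 0 of the 8 in primed and 1 in tolerant cells, and limma-voom called 0 in both. With the replicate number as a block, edgeR called 0 in primed cells and 1, Irf8, in tolerant cells. Leaving out Irf4, the log2 fold changes ran from -0.34 to 0.17 in primed and from -0.53 to 0.27 in tolerant cells.

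Apart from Irf4, which lay at the floor, Irf8 had the largest of these differences. With carboplatin, primed replicates held 687, 697 and 856 normalised counts, below the 939 to 964 of primed cells without it. Tolerant replicates with carboplatin held 739.5, 639 and 839, below the 961 to 1135 of tolerant cells. Neither pair of groups overlapped, and all 3 same-numbered pairs went down in both states. Ratios were 0.713, 0.743 and 0.912 in primed and 0.652, 0.664 and 0.759 in tolerant cells. This was not particular to Irf8. In both states all 3 pairs also went down for Irf2 and up for Irf5, and Irf5 did not overlap in primed cells. How often groups of 3 part in this way over all genes was not counted. The log2 fold change of Irf8 was -0.34 in primed cells (SE 0.15, 95% interval -0.65 to -0.03, adjusted p = 0.631). In tolerant cells it was -0.53 (SE 0.15, 95% interval -0.84 to -0.22, adjusted p = 0.18). With the replicate number as a block, the difference in tolerant cells passed (adjusted p = 0.0412), in a fit that called 1.43% of all genes lower. It also passed with DESeq2 (adjusted p = 0.0368), which called 1.19% of all genes lower. In primed cells the block gave an adjusted p of 0.222. Fits without one library gave adjusted p values from 0.199 to 0.609 in tolerant cells.

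**Figure D4:**
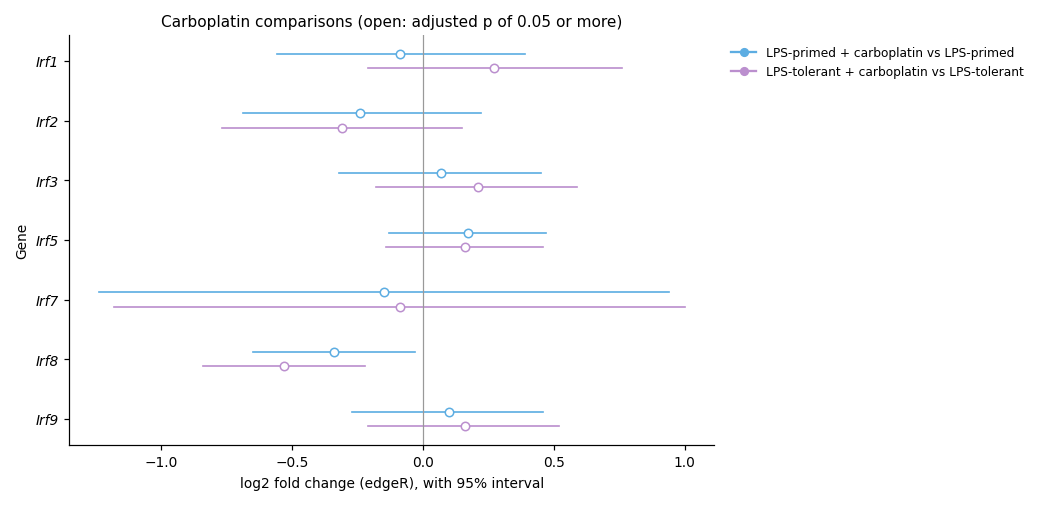
Log2 fold changes from edgeR with 95% intervals (horizontal axis) of 7 IRF genes (vertical axis), with carboplatin against without, in LPS-primed and LPS-tolerant BMDMs. Points are drawn open because no adjusted p was under 0.05 in this fit without a replicate block. Irf8 has the lowest values, -0.34 and -0.53, and intervals that end below 0, and Irf4 is left out because its groups are at the floor.

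The other intervals show what the comparison could resolve. For Irf5 the log2 fold change was 0.17 in primed cells (95% interval -0.13 to 0.47) and 0.16 in tolerant cells (-0.14 to 0.46). For Irf7 it was -0.15 (-1.24 to 0.94) and -0.09 (-1.18 to 1.00), a much wider range. The effect of carboplatin in tolerant cells did not pass against that in primed cells for any of the 8 genes. edgeR called 0% of all genes higher and 0% lower in that test, with 131 genes at an unadjusted p under 0.05 and 0 of the 8 among them, and DESeq2 called 0 of the 8. For Irf8 the difference between both effects was -0.19 (SE 0.21, 95% interval -0.63 to 0.25).

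The rest of the pathway is given from lists of its parts. Among 18 genes that link Toll-like receptor 4 and the nucleic acid sensors to IRF3, 12 rose and 5 fell with one dose of LPS, against 24.3% of all genes called higher and 26.9% called lower, with a median log2 fold change of 0.76 against -0.09 for all genes. Ikbke, which encodes IKKε, rose by 2.32 (adjusted p = 4.33e-08) and Tbk1 by 0.67 (adjusted p = 0.00175). Tlr4 itself fell by 0.81 on the log2 scale (adjusted p = 0.0232). Among these genes, tolerant cells had 1 higher and 8 lower than stimulated cells, against 16.2% and 18.3% of all genes, at a median of -0.38 against 0. In tolerant cells 3 were lower and 0 higher than in primed cells, against 2.71% and 3.6% of all genes. With the replicate block 5 were lower and 1 higher, against 8.32% and 9.67%.

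Among 15 genes of the interferon receptors and the JAK-STAT pathway, 8 rose and 1 fell with one dose of LPS, against 24.3% and 26.9% of all genes, at a median of 0.95. Ifnar1 rose by 1.95 (adjusted p = 1.54e-05). Socs1, an inhibitor of JAK kinases, rose from 12.0 ± 7.48 to 559 ± 245 normalised counts (log2 fold change 5.52, adjusted p = 4.67e-05). Stat2, the partner of IRF9, was lower in tolerant than in stimulated cells by -1.08 (adjusted p = 0.0109) and than in primed cells by -1.15 (adjusted p = 0.0333). Without LPS-primed replicate 2 the latter value was -0.85 and did not pass (adjusted p = 0.157). Tolerant cells had 1 of the 15 higher and 8 lower than stimulated cells, against 16.2% and 18.3% of all genes, at a median of -0.58. They had 0 higher and 3 lower than primed cells, against 3.6% and 2.71%, or 1 and 6 with the block, against 9.67% and 8.32%.

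Of 28 interferon-stimulated target genes tested, 9 rose and 0 fell with one dose, against 24.3% and 26.9% of all genes, at a median of 0.52. Without unstimulated replicate 1, 17 rose and 0 fell, against 23% and 23.3%, at a median of 1.00. That library was left out because these same genes were high in it, which tilts the count towards a rise. Cxcl10, a chemokine, rose from 53.9 ± 32.0 to 2402 ± 978 normalised counts (log2 fold change 5.48, adjusted p = 1.46e-07), and Isg15 rose by 2.05 (adjusted p = 8.98e-04). Without unstimulated replicate 1 these log2 fold changes were 6.10 and 3.03. Tolerant cells had 18 of the 28 lower than stimulated cells and 0 higher, against 18.3% and 16.2% of all genes, at a median of -1.62. Cxcl10 was lower there by -4.80 (adjusted p = 1.06e-06) and Isg15 by -2.60 (adjusted p = 2.36e-04). Between tolerant and primed cells 0 of the 28 passed, against 3.6% of all genes called higher and 2.71% lower, and the median was -0.91. With the replicate block 10 were lower, against 8.32% of all genes. Without LPS-primed replicate 2 the count was again 0, against 2.17% and 1.54%, and the median -0.59. Primed against unstimulated cells gave 1 higher and 1 lower, against 12.1% and 13.1% of all genes, or 4 and 3 with the block, against 18.9% and 19.8%. Without unstimulated replicate 1 there were 6 higher and 0 lower, against 11.4% and 10.7% of all genes. Without LPS-primed replicate 2 there were 1 and 2, against 10.6% and 11%.

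Among 14 tested partners and regulators of IRFs, 9 rose and 2 fell with one dose, against 24.3% and 26.9% of all genes. In tolerant against stimulated cells 4 were higher and 8 lower, against 16.2% and 18.3%. Spi1, which encodes PU.1, rose by 0.83 with one dose (adjusted p = 6.89e-05) and was lower by -0.53 in tolerant than in stimulated cells (adjusted p = 0.00509). Batf2, which pairs with IRFs on DNA, rose from 36.2 ± 12.6 to 124 ± 37.2 normalised counts (log2 fold change 1.78, adjusted p = 1.91e-04) and stood at 19.2 ± 5.97 in tolerant cells. In the test of the second response against the first, the lists gave 1 higher and 8 lower of 18, 1 and 9 of 15, 0 and 12 of 28, and 2 and 8 of 14, against 10.5% and 13.3% of all genes. With the block the lower counts were 12, 10, 16 and 9, against 19%. For the 28 target genes the lower count was 19 without unstimulated replicate 1, against 12.9% of all genes, and 8 without LPS-primed replicate 2, against 11.2%. Carboplatin gave 0 calls in every list, in primed and in tolerant cells, with and without the block. Of all genes, 0% were called higher and 0.372% lower in primed cells, and 0.0177% and 0.407% in tolerant cells. With the block, 200 of 11305 genes were called in each state. At such shares, 0 calls in lists of this size are near the background.

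Levels per kilobase of exon set the 9 genes beside each other. In unstimulated cells Irf7 (603 ± 523 normalised counts per kilobase) and Irf5 (271 ± 9.35) led, followed by Irf3 at 154, Irf9 at 124, Irf1 at 117, Irf8 at 112 and Irf2 at 50.8. In LPS-stimulated cells Irf1 (424 ± 91.0) came second after Irf7 (497 ± 364) by its mean. In stimulated replicates 1, 2 and 3 Irf7 stood at 916, 312 and 263 and Irf1 at 512, 428 and 330, so that Irf1 was above Irf7 in 2 of 3. Without replicate 1 the means were 379 for Irf1, 298 for Irf5 and 287 for Irf7, and in unstimulated cells 301 for Irf7 and 270 for Irf5. In stimulated cells Irf8 (21.9 ± 2.31) stood below Irf4 (27.5 ± 7.66). In LPS-tolerant cells Irf7 (1540 ± 420) and Irf5 (312 ± 50.1) led again, and Irf1 stood at 59.5 ± 6.79.

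The genes most like each IRF over the 18 samples were found by Pearson's r of log2 values, as a description. The points share groups and replicate numbers, so r has no test here. Irf1 was nearest to Gbp3 (r = 0.962), Trim30c (0.959) and Gadd45b (0.953). Irf4 was nearest to Icosl (0.970), Mamld1 (0.967) and Cd83 (0.965). Irf8 was nearest to Tsc22d3 (0.959), Lpar6 (0.951) and Mast3 (0.949). Irf7 was nearest to Fcgr1 (0.952), Lgals9 (0.949) and Tmed10 (0.945). Irf2 was nearest to Arrb1 (0.952), Nek1 (0.940) and Tifab (0.932). Irf9 was nearest to Adar (0.90), Tap1 (0.854) and Trafd1 (0.849). Irf5 reached 0.896 with St3gal6, 0.881 with Cyth2 and 0.879 with Nr4a1, and Irf3 no more than 0.830, with Mrps12, 0.829 with Rps19 and 0.799 with Trmt2a. Between the IRF genes themselves, r was 0.84 for Irf2 with Irf8, 0.83 for Irf1 with Irf4 and -0.84 for Irf1 with Irf8.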

How the data were processed

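Total RNA of 18 BMDM cultures was sequenced from stranded mRNA libraries as paired reads. The authors used HISAT2 with GRCm39 and then HTSeq-count, and the deposited values are raw counts per gene, with no normalization. Program versions, annotation and strand setting are not given in the sources used here. Rows that name no gene held 41.5% to 46.9% of the read pairs of a sample and were left out of library sizes. Total counts per sample ran from 6869667 to 14708099 (median 8986463), so that genes with few reads have a wide counting error, and intervals on counts cover counting error only.

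Groups were taken from the sample labels. Tests used edgeR 4.0.16 under R 4.3.3 (quasi-likelihood test, all 18 samples, 1 mean per group, TMM, filter with minimum count 10 and minimum total 15, prior count 0.125), adjusted after Benjamini and Hochberg. The SE is the size of the log2 fold change divided by the root of F. Alternatives were DESeq2 1.42.0, limma-voom (limma 3.58.1), other scalings, no filter, prior count 2, fits of the groups compared alone, and leaving out samples. Same-numbered samples deviated together from their group means in every pair of every comparison (r from 0.183 to 0.574), so the numbers were taken to pair the samples, and the replicate number entered an added fit as a block. The scripts were tested on simulated counts.

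The genes, pathway lists, cell type markers and tests were chosen with earlier results of these data known. Named genes are the 9 genes, 17 listed pathway genes (of which Batf3 was not tested) and the 3 genes most like each tested IRF. Mx1 and Mx2 are not used here. Exon lengths and overlaps are from GENCODE vM39, promoters from RefSeq (GRCm38.p6), where all 9 genes matched. The p-values measure the spread between the numbered replicates.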

Additional observations from a re-analysis of the deposited data

Results flagged for a closer look

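Irf1 and Irf8 responded differently to LPS in naive and in primed BMDMs, by the edgeR test of the difference itself. For Irf1, the change with the second dose minus the change with the first was -2.75 on the log2 scale (adjusted p = 9.66e-06). The same difference was 2.52 for Irf8 (adjusted p = 1.85e-07). Both passed in all 12 fits that left out one library of the 4 groups, where Irf1 ran from -2.97 to -2.48 and Irf8 from 2.41 to 2.63. Both responses followed 10 ng/ml, with 3 h taken for the first. The second also spans the removal of the priming medium and a change to fresh medium, which cannot be told apart from the dose. The labels do not say whether the first dose came with fresh medium. Groups of 3 are too small for the test for a single outlying sample.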

How the results depend on the processing

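Of 1077 alternative values for single genes, 971 kept direction and side of the threshold, 29 lost a call, 16 gained one, 61 uncalled values changed sign and 0 called values reversed. With library size alone, the test of the second response against the first called 4 IRF genes in place of 2, and with the replicate block 5. Carboplatin in tolerant cells called 1 in place of 0 with DESeq2 and with the replicate block. Tolerant against primed cells gave 0 in place of 2 in a fit of those groups alone. The limits of the study gave 1, 2, 3 and 0 IRF genes for primed against unstimulated, stimulated against unstimulated, tolerant against stimulated and tolerant against primed cells, in place of 3, 4, 6 and 2. Leaving out one library gave 1 to 2, 4, 4 to 6 and 0 to 2 for these comparisons and 2 to 4 for the second response against the first. Besides the calls named here and in the report, the block changed no call of an IRF gene. Leaving out replicate 1 of the unstimulated and stimulated groups together, gave 2, 4, 6 and 2, and this and the values in the report for target genes, levels per kilobase and the bound of Ifnb1 without a library were chosen after the data were seen. Apart from the stricter limits, which can only call fewer genes, the cause of these moves was not tested. Leaving out a library lowers the number of samples and removes its values at once, which cannot be told apart.

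Library size alone shifted the median log2 fold change of all genes by -0.24 in primed and -0.34 in stimulated against unstimulated cells, and by 0.24 in the second response against the first. The share of calls that were higher moved from 48.1% to 26.4%, from 47.5% to 28.5% and from 44.2% to 63.3%, and in tolerant against primed cells from 57.1% to 38.3%. Calls over all genes for tolerant against primed cells were 713, with 2034 under the block, 1127 with DESeq2 and 454 in those groups alone. For carboplatin in primed and tolerant cells they were 42 and 48, with 200 and 200 under the block, 121 and 152 with DESeq2, and 19 and 6 in those groups alone. With limma-voom tolerant cells gave 24. For primed against unstimulated cells the block raised 2847 to 4367, and for the second response 2691 to 4091. Depth limits Ifnb1 and Irf4.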

Other observations

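Irf2 was lowest in replicate 1 and highest in replicate 3 in each of the 6 groups, for example at 404, 459 and 674 normalised counts in LPS-tolerant cells with carboplatin and at 506.5, 598 and 628 in LPS-primed cells with carboplatin. Irf7 was highest in replicate 1 in 4 of the 6 groups.

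Markers of other cells were summed per library, in normalised counts. The 7 B and plasma cell markers summed to 269 to 1560 in unstimulated, 71.6 to 271 in LPS-stimulated and at most 12.7 in other libraries. In unstimulated and stimulated cells most of it was Ighm, and in LPS-primed cells Cd79b (mean 6.23) was above Ighm (1.02). The 5 plasmacytoid dendritic cell markers summed to 1508 to 4144, from Bst2 and Tcf4, while Siglech had means of at most 1.15. The 5 conventional dendritic cell markers summed to at most 11.8 and the 7 T and NK cell markers to at most 15.6. The 6 neutrophil markers summed to 7.27 to 12.4 in unstimulated, 40.8 to 120 in LPS-stimulated and 84.3 to 542 in the other libraries, nearly all of it S100a8. The 4 fibroblast markers summed to at most 73.1, mostly Dcn. The 8 macrophage markers summed to 149500 to 168600 in unstimulated and 142000 to 178700 in LPS-stimulated libraries. They summed to 220000 to 304600 in the other libraries. Lyz2 was the largest part, with a mean of 81930 in unstimulated and 144200 in LPS-primed cells. Itgam averaged 4892 and 27020 in these groups, and Adgre1, Fcgr1 and Cd14 were also higher in primed cells. Cd68 was lower there, at 15210 against 29050, and Mertk at 438 against 610, while Csf1r averaged 23030 and 24480.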
